A study of Mus musculus with 4 samples.

Results

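The genes described here are 36 mouse genes of protein folding in the endoplasmic reticulum (ER) and of the first steps of secretion, out of 49585 genes counted. They were taken from a named list, found by symbol and joined by Ensembl identifier to the counts, and all 36 were found and had enough counts to be tested. Transcripts were sequenced in 4 strand-specific mRNA libraries of C2C12, a mouse myoblast line of C3H strain, kept as proliferating myoblasts. In 2 libraries the cells had been transduced with a retrovirus to overexpress C/EBPβ, a leucine-zipper transcription factor, and in 2 with the empty vector pLXSN. Every group was kept in medium with 10% fetal bovine serum, selected in 1200 μg/ml G418 for 7 days as pooled stable cells, and grown for 48 h. Whether replicates 1 and 2 of a group are separate transductions is not stated in the labels, and the p-values therefore reflect the spread between the libraries alone, which may be technical.

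Proteins bound for the cell surface or the outside enter the ER through the Sec61 channel, fold with the help of chaperones and disulfide and prolyl isomerases, and leave in COPII-coated vesicles. Misfolded proteins are sensed by IRE1 (Ern1), ATF6 and PERK, which start the unfolded protein response, and are removed by ER-associated degradation. Procollagen needs its own helpers, among them the chaperone HSP47 and enzymes that hydroxylate proline and lysine, and myoblasts and fibroblasts both secrete it. CREB3L1 (OASIS) and CREB3L2 (BBF2H7) are relatives of ATF6 that are known for matrix secretion in bone and cartilage.

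In C/EBPβ cells all 6 prolyl isomerase and collagen chaperone members passed as higher. So did 3 of the 9 genes grouped as Hsp70 and Hsp90 chaperones and co-chaperones, namely Hyou1, Dnajb9 and Manf. In translocation and COPII transport, 3 of 6 members passed as higher. Creb3l1 was 2.10-fold, Fkbp14 1.78-fold, Calr 1.75-fold, Fkbp7 1.74-fold and Serpinh1, which encodes HSP47, 1.503-fold higher. Hspa5, the Hsp70 chaperone BiP, was 1.19-fold higher and Hsp90b1, the Hsp90 chaperone GRP94, 1.10-fold higher, and neither passed the test. Atf6 was the single member that passed as lower, at 0.806-fold. The members were chosen with earlier results of these data known, so the shares given here describe the list and do not test it. Of the 36 members, 18 passed as higher, against 14.1% of the 15078 genes tested, and 1 as lower, against 10.8%. Calls in either direction made up 24.9% of all genes tested and 19 of the 36 members. The median log2 fold change was 0.29 over the members and 0.001 over all genes tested.

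Levels are given in CPM, a gene's count set against all tested counts of its library after scaling with a TMM factor, and compare a gene between libraries. Levels of different genes are compared in TPM, which divides by gene length. Every fold change divides C/EBPβ by empty vector, and a gene passed at an adjusted p under 0.05 in edgeR's quasi-likelihood test with Benjamini-Hochberg adjustment over all genes tested. The members took 1.64% and 1.63% of all counts in C/EBPβ replicates 1 and 2, against 1.30% and 1.29% in empty vector replicates 1 and 2. In 31 of 36 members both C/EBPβ libraries stood above both empty vector libraries, and in 3 below, against 33.3% and 32.9% of all genes tested.

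Library totals lay between 37566321 and 92027838 counts, and the deepest was C/EBPβ replicate 2. Cebpb stood at 483 and 473 CPM in C/EBPβ replicates 1 and 2, against 84.99 and 76.83 CPM in empty vector replicates 1 and 2 (log2 fold change 2.56, SE 0.09, adjusted p = 3.03e-06). That value can hold reads of the vector-borne copy. All 7 myoblast markers checked (Myod1, Myf5, Des, Cdh15, Pax7, Itga7 and Chrna1) were present, and their sum was 1872 and 2183 CPM with C/EBPβ, against 3323 and 3611 CPM with empty vector. Of these 7, 5 passed as lower, while Myf5 (log2 fold change 0.60, adjusted p = 0.00179) and Pax7 (0.94, adjusted p = 0.00248) passed as higher. Of 9 leukocyte markers, Tyrobp, Adgre1 and Cd3e were at 0 throughout, and Ptprc and Jchain did not exceed 2 counts. Csf1r passed as higher, with 61 and 129 counts with C/EBPβ, against 33 and 14 counts with empty vector (1.33, adjusted p = 0.0235). Cd68 stood at 5.87 and 6.28 CPM with C/EBPβ, against 4.94 and 4.73 CPM with empty vector, and did not pass (adjusted p = 0.138). The sum of the list, 407 and 390 CPM with C/EBPβ against 216 and 224 CPM with empty vector, was nearly all Sdc1, a syndecan that is not restricted to leukocytes. Endothelial markers summed to 1.21 and 1.24 CPM with C/EBPβ, against 0.705 and 0.502 CPM with empty vector. Among them Vwf passed as higher (1.82, adjusted p = 0.008), with 30 and 62 counts against 10 and 6, and Kdr did not pass. Adipocyte markers summed to 0.813 and 0.316 CPM with C/EBPβ, against 0 and 0.0264 CPM with empty vector, and none had enough counts to be tested. The 8 fibroblast and osteoblast markers summed to 199.7 and 148.5 CPM with C/EBPβ, against 95.2 and 83.4 CPM with empty vector, mainly through Pdgfra and Runx2. Pdgfra (log2 fold change 2.57, adjusted p = 4.04e-05), Dpt (2.605, adjusted p = 7.34e-04) and Runx2 (0.615, adjusted p = 0.00601) passed as higher. Dcn (0.15, adjusted p = 0.633) and Sp7 (0.38, adjusted p = 0.656) did not pass, and Lum, Bglap and Ibsp had at most 4 counts in any library. The part of these markers in the results on secretory genes was not tested. In such bulk samples a change in the share of cells and a change in RNA per cell cannot be told apart.

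**Figure D1:**
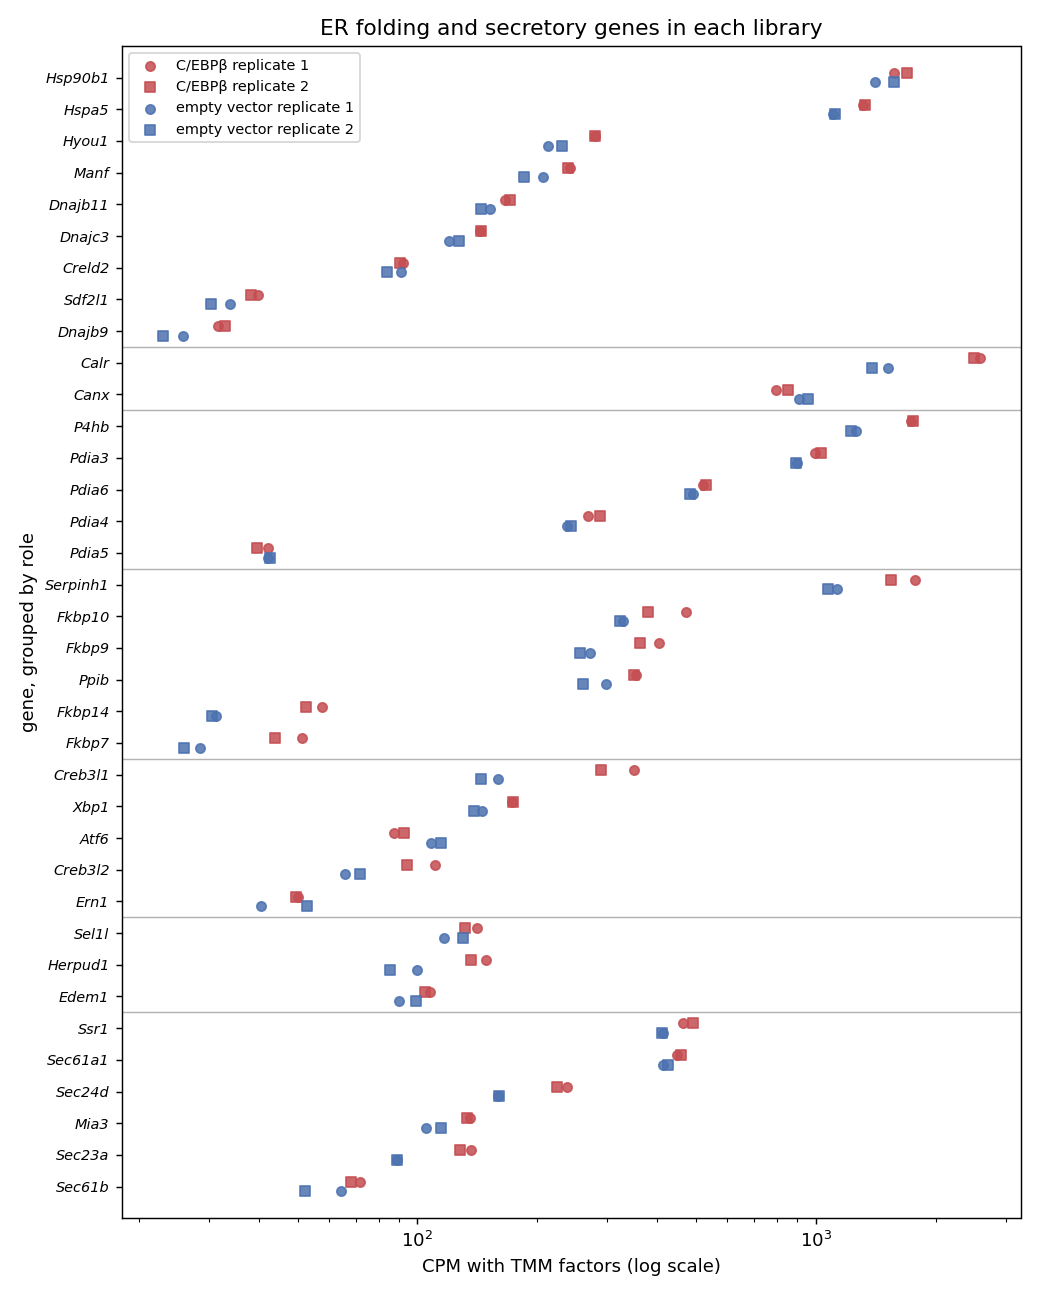
Level of each of the 36 genes in each library, in CPM with TMM factors on a log axis, grouped by role with grey lines between groups. Red points are C/EBPβ and blue points empty vector libraries, circles are replicate 1 and squares replicate 2. The red points lie to the right of the blue in 31 genes.

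Promoter sequences were searched for exact matches to known elements of the unfolded protein response. The table of RefSeq promoters (GRCm38.p6) holds windows from 250 bases before to 50 after the start for 30 of the 36 members. Creb3l1, Hyou1, Manf, Fkbp10, Sec61a1 and Atf6 had no window and were not searched. Among them are the member with the largest fold change, Creb3l1, and the only member that passed as lower, Atf6. Motifs were searched on both strands. The ER stress response element is CCAAT, then 9 bases of any kind, then CCACG, and is read by ATF6 together with NF-Y. It was found in 7 of these 30 members, against 0.137% of the 27025 genes in the table. The 8 matching sites are printed 5′ to 3′ along the element, with the element in capitals and 10 bases on each side. No match in a member overlapped a match to another motif.
Hspa5, chr2:34772015-34772053, plus strand: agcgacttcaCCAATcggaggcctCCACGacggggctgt
Hsp90b1, chr10:86705523-86705561, plus strand: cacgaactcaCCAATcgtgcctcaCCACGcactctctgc
Hsp90b1, chr10:86705628-86705666, minus strand: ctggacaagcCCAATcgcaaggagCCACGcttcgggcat
Calr, chr8:84847065-84847103, plus strand: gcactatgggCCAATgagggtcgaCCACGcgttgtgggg
Canx, chr11:50325790-50325828, minus strand: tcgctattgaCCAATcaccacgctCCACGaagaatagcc
Pdia6, chr12:17266481-17266519, plus strand: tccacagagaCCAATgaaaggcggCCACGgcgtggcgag
Dnajc3, chr14:118937817-118937855, plus strand: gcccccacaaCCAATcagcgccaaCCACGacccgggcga
Creld2, chr15:88819510-88819548, minus strand: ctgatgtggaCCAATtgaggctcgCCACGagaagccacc

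Of these 7 genes Calr rose and the other 6 did not pass the test, with log2 fold changes between -0.18 (Canx) and 0.25 (Hspa5). Over all genes tested 14.1% passed as higher, and nothing about the element is read from this count. A second form of the element (ATTGG, then 1 base of any kind, then CCACG) was found in Herpud1 and Dnajb11, against 0.0444% of all genes in the table. Herpud1 rose and Dnajb11 did not pass. The sequence TGACGTGG, which is close to the sites bound by XBP1, ATF6 and CREB3L proteins, was found in Sec23a and Sec24d, against 0.714% of all genes. Both encode parts of the inner COPII coat, and both rose. Their sites and those of the second element are shown with the matching letters in capitals.
Herpud1, chr8:94386367-94386397, plus strand: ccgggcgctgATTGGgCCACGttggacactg
Dnajb11, chr16:22857842-22857872, plus strand: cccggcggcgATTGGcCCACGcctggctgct
Sec23a, chr12:59011994-59012021, minus strand: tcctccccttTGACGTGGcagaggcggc
Sec24d, chr3:123267460-123267487, plus strand: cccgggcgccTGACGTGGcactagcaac

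The palindrome TTGCGCAA, a preferred C/EBP site, was found in Canx among the 30 members, against 0.207% of all genes, and TGATGCAAT, an element shared by C/EBP and ATF4, in no member window. A match is a description of letters and not of binding, and these windows say nothing of distant sites. Variants of an element were not sought, so a gene without an exact match can still hold a working element. Among all genes tested that hold TGACGTGG, 22 of 105 passed as higher and 8 as lower, with a median log2 fold change of 0.05. Over all genes tested 14.1% passed as higher and 10.8% as lower. Among tested genes that hold the first ER stress response element, 5 of 18 passed as higher, with a median of 0.21. These 18 include the 7 members above.

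All 9 genes grouped as Hsp70 and Hsp90 chaperones and co-chaperones had a log2 fold change above 0. The median was 0.25 and the range from 0.06 to 0.41, and 3 of the 9 passed as higher. Hspa5 (ENSMUSG00000026864) lies on chr2:34771970-34777547, plus strand, in GRCm38. It stood at 1319 and 1333 CPM in C/EBPβ replicates 1 and 2, against 1108 and 1121 CPM in empty vector replicates 1 and 2. The libraries of each group lay close together and the groups did not overlap, but the log2 fold change of 0.25 (SE 0.10) had an adjusted p of 0.1004. DESeq2 called it higher (adjusted p = 0.0176).

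Hsp90b1 stood at 1577 and 1692 CPM in C/EBPβ libraries and at 1406 and 1575 CPM in empty vector libraries, so that C/EBPβ replicate 1 and empty vector replicate 2 nearly met (log2 fold change 0.13, SE 0.11, adjusted p = 0.432). Hyou1, a large Hsp70 relative that exchanges the nucleotide of BiP, stood at 279.9 CPM in both C/EBPβ libraries, against 213 and 231 CPM with empty vector (log2 fold change 0.34, adjusted p = 0.0220). Dnajb9, a J-protein that restrains IRE1, stood at 31.6 and 32.9 CPM, against 25.8 and 23.0 CPM with empty vector (0.41, adjusted p = 0.0196). Manf, a secreted factor that is retained in the ER, stood at 242 and 239 CPM, against 206 and 185 CPM with empty vector (0.30, adjusted p = 0.0409).

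These 3 calls did not hold in every fit. With 1 library left out in turn, the log2 fold change ranged from 0.28 to 0.39 for Hyou1, 0.32 to 0.49 for Dnajb9 and 0.22 to 0.38 for Manf. A fit with 1 library fewer has less power, so a lost call does not show that a difference rests on 1 library. Of the 9 chaperone genes, 0 passed in edgeR without C/EBPβ replicate 2 (4 at an unadjusted p under 0.05), 1 passed without C/EBPβ replicate 1 or empty vector replicate 2, and with all libraries DESeq2 called 4 and limma-voom 3. Without C/EBPβ replicate 2 the adjusted p was 0.086 for Hyou1, 0.0802 for Dnajb9 and 0.123 for Manf. Hyou1 also lost its call without C/EBPβ replicate 1 (0.103) and without empty vector replicate 1 (0.0645), and Dnajb9 without empty vector replicate 2 (0.0681). Manf lost it when C/EBPβ replicate 1 (0.191) or empty vector replicate 2 (0.105) was left out, and with libraries scaled by their totals (0.055). The J-proteins Dnajb11 (0.18) and Dnajc3 (0.22) and Creld2 (0.06), a calcium-binding ER protein, did not pass in any fit run. Sdf2l1, a partner of BiP and ERdj3, had 0.28 (adjusted p = 0.0659), and passed without empty vector replicate 1 (0.36, adjusted p = 0.0495) and with the replicate number as a block (adjusted p = 0.0368).

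The lectin chaperones, which hold glycoproteins by their sugars, moved apart. Calr (calreticulin, ENSMUSG00000003814; chr8:84841850-84846934, minus strand) stood at 2582 and 2499 CPM in C/EBPβ replicates 1 and 2, against 1523 and 1386 CPM in empty vector replicates 1 and 2. Its log2 fold change was 0.80 (SE 0.11, adjusted p = 0.00126). Canx, its membrane-bound relative calnexin, stood at 796 and 852 CPM with C/EBPβ, against 906 and 955 CPM with empty vector (-0.18, SE 0.10, adjusted p = 0.239). Per length, Calr was 5.28 and 4.78 times as abundant as Canx in C/EBPβ libraries and 2.74 and 2.37 times in empty vector libraries, a ratio that no scaling of libraries can change. Calr was the most abundant member in both groups, at a mean of 2898 TPM with C/EBPβ and 1644 TPM with empty vector.

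Of the 5 disulfide isomerases, which form and reshuffle disulfide bonds, P4hb passed as higher. P4hb is also the partner subunit of collagen prolyl 4-hydroxylase. It stood at 1731 and 1751 CPM with C/EBPβ, against 1265 and 1229 CPM with empty vector, with groups that lay well apart (log2 fold change 0.48, SE 0.10, adjusted p = 0.00984). Without empty vector replicate 2 the call was narrowly lost (0.46, adjusted p = 0.0519). Pdia3, which works with calnexin and calreticulin, had 0.18 (997 and 1029 CPM with C/EBPβ, 899 and 892 CPM with empty vector; adjusted p = 0.218). Pdia4 had 0.21, Pdia6 0.10 and Pdia5 -0.06, and none of these passed in any fit run.

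All 6 prolyl isomerase and collagen chaperone genes passed as higher, with a median log2 fold change of 0.56 (4 without C/EBPβ replicate 1 or empty vector replicate 2). Serpinh1 (ENSMUSG00000070436) binds the folded procollagen triple helix. It stood at 1773 and 1545 CPM in C/EBPβ replicates 1 and 2, against 1134 and 1074 CPM in empty vector replicates 1 and 2 (0.59, SE 0.11, adjusted p = 0.00627). Fkbp14, an ER prolyl isomerase whose loss in humans causes a kyphoscoliotic form of Ehlers-Danlos syndrome, stood at 57.5 and 52.4 CPM, against 31.2 and 30.5 CPM with empty vector (0.83, SE 0.09, adjusted p = 3.77e-04). Fkbp7 stood at 51.4 and 43.8 CPM, against 28.52 and 25.98 CPM with empty vector (0.80, adjusted p = 0.00111). In these 3 genes the lowest C/EBPβ library stood clear of the highest empty vector library.

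Fkbp9 had 404 and 362 CPM with C/EBPβ, against 271 and 256 CPM with empty vector (0.54, adjusted p = 0.00391). Fkbp10, the procollagen isomerase FKBP65 mutated in a human brittle bone disease, had 471 and 379 CPM, against 328 and 322 CPM with empty vector (0.39, adjusted p = 0.0403). Its 2 C/EBPβ libraries lay far apart, and without C/EBPβ replicate 1 the value was 0.22 (adjusted p = 0.392). It also lost its call without empty vector replicate 1 (0.115) and without empty vector replicate 2 (0.127). Ppib, cyclophilin B, which acts in the complex that 3-hydroxylates procollagen, had 355 and 349 CPM, against 298 and 261 CPM with empty vector (0.33, adjusted p = 0.0349). Of the 4 fits that leave out 1 library it passed in 1, and had adjusted p of 0.132 (C/EBPβ replicate 1 left out), 0.0806 (C/EBPβ replicate 2) and 0.101 (empty vector replicate 2) in the others. All 6 genes stood higher in replicate 1 than in replicate 2 within both groups.

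**Figure D2:**
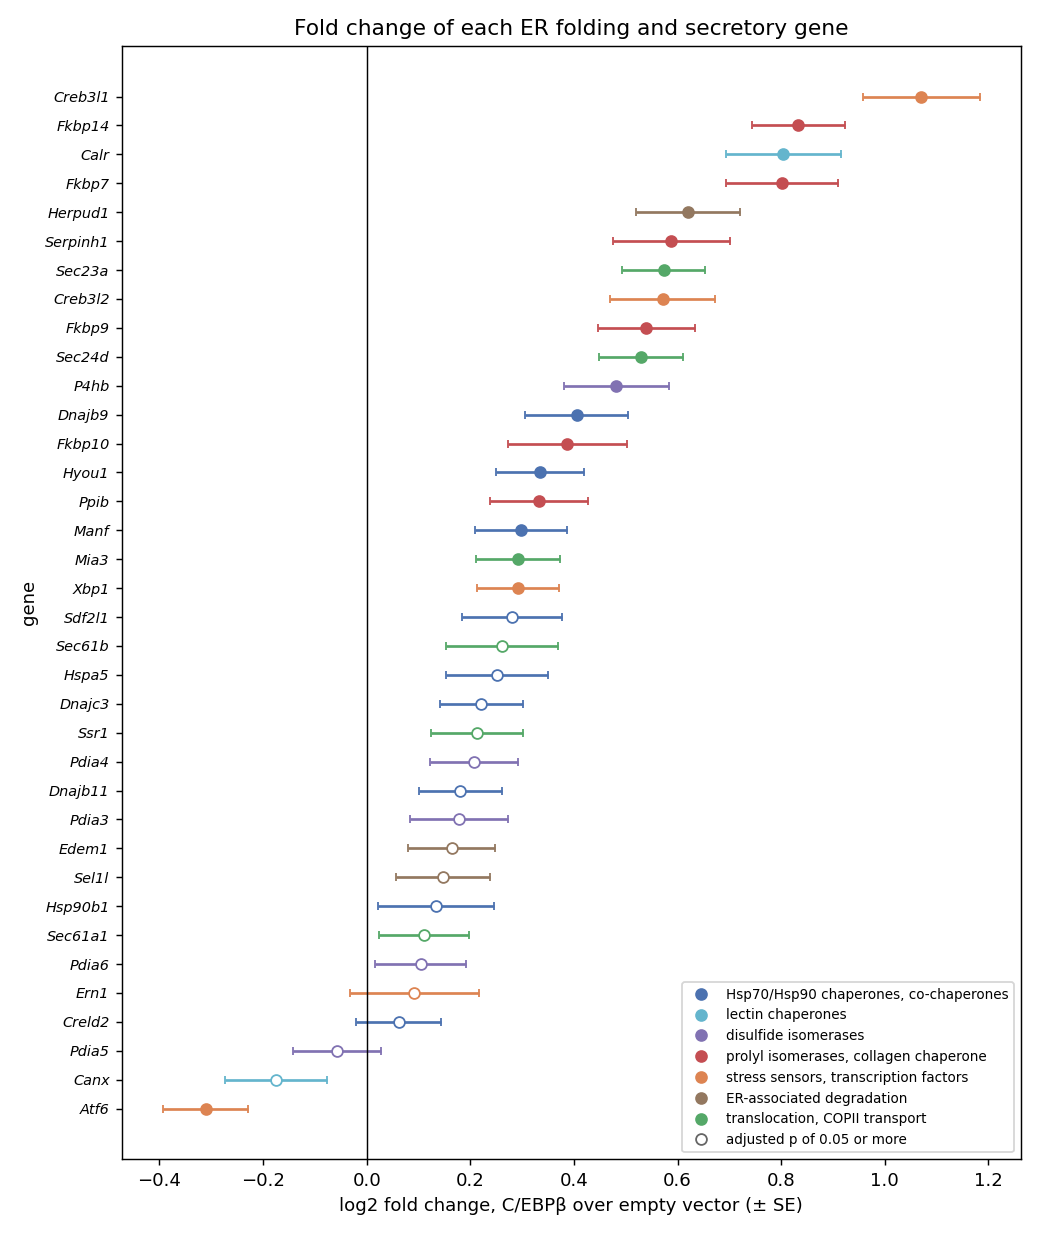
Log2 fold change of each gene, C/EBPβ over empty vector, with its standard error (bars), coloured by role. Filled points passed an adjusted p of 0.05. Creb3l1 (1.07) is at the top and Atf6 (-0.31) at the bottom, and the 6 prolyl isomerase and collagen chaperone genes are all filled.

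The sensors and transcription factors differed among themselves. Creb3l1 (ENSMUSG00000027230; chr2:91982328-92024502, minus strand), cut from the ER membrane to free a transcription factor, stood at 351 and 289 CPM in C/EBPβ replicates 1 and 2, against 160 and 145 CPM in empty vector replicates 1 and 2. It had the largest log2 fold change of the 36 members, 1.07 (SE 0.11, adjusted p = 3.40e-04), and with each library left out in turn it ranged from 0.92 to 1.204. Its relative Creb3l2 stood at 111 and 94.2 CPM, against 65.8 and 71.9 CPM with empty vector (0.57, adjusted p = 0.00418). For both genes the lower C/EBPβ library stood above the higher empty vector library.

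Atf6 (ENSMUSG00000026663; chr1:170704674-170867771, minus strand) stood at 87.1 and 92.7 CPM with C/EBPβ, against 108 and 115 CPM with empty vector (-0.31, SE 0.08, adjusted p = 0.0254). It did not pass when C/EBPβ replicate 1 (adjusted p = 0.245), C/EBPβ replicate 2 (0.071) or empty vector replicate 2 (0.0582) was left out. Per length, Creb3l1 was 14.27 and 11.04 times as abundant as Atf6 in C/EBPβ libraries, and 5.22 and 4.48 times in empty vector libraries. Xbp1, whose RNA is spliced by IRE1, stood at 173 and 174 CPM with C/EBPβ, against 145 and 138 CPM with empty vector (0.29, adjusted p = 0.0293). Its adjusted p was 0.167, 0.151 and 0.0638 without C/EBPβ replicate 1, C/EBPβ replicate 2 and empty vector replicate 2. Gene counts do not separate spliced from unspliced Xbp1. Ern1 stood at 50.1 and 49.5 CPM with C/EBPβ, between the 40.5 and 52.9 CPM of the empty vector libraries (0.09, adjusted p = 0.637), and its sign turned without empty vector replicate 1 (-0.09).

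Among the genes of ER-associated degradation, Herpud1, a membrane adaptor of the Hrd1 ligase, rose. It stood at 149 and 136 CPM with C/EBPβ, against 99.9 and 85.3 CPM with empty vector (0.62, SE 0.10, adjusted p = 0.00266). Edem1, which trims mannose from misfolded glycoproteins, had 0.16 and Sel1l, the partner of Hrd1, 0.15, and neither passed in any fit run.

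Of the 6 genes of translocation and ER exit, the 3 that passed act in COPII transport out of the ER. Sec23a stood at 136 and 128 CPM with C/EBPβ, against 89.1 and 88.6 CPM with empty vector (0.57, SE 0.08, adjusted p = 0.00131). Sec24d, the cargo-binding coat subunit, stood at 237 and 225 CPM, against 159 and 160 CPM with empty vector (0.53, SE 0.08, adjusted p = 0.00214). In both genes the libraries of a group differed far less than the groups did. Mia3, or TANGO1, which loads procollagen into large carriers, stood at 136 and 133 CPM, against 105 and 115 CPM with empty vector (0.29, adjusted p = 0.0335). It lost its call without C/EBPβ replicate 1 (0.208), without C/EBPβ replicate 2 (0.123) and without empty vector replicate 1 (0.0792).

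The channel itself did not pass. Sec61a1, its pore-forming subunit, stood at 449 and 459 CPM with C/EBPβ, against 415 and 426 CPM with empty vector (0.11, SE 0.09, adjusted p = 0.399). Sec61b had 71.8 and 68.3 CPM, against 64.5 and 52.3 CPM with empty vector (0.26, adjusted p = 0.117). It passed without empty vector replicate 1 (0.42, adjusted p = 0.0191) and with the replicate number as a block (adjusted p = 0.0384). Ssr1, a subunit of the translocon-associated complex, had 0.21 (adjusted p = 0.121). A missed threshold does not show that any of these genes stayed level.

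Lists of other secretory genes, 165 genes in all, are set beside the members. These lists were chosen with earlier results of these data known. Of the 159 with enough counts, 51 passed as higher (32.08%) and 11 as lower, with a median log2 fold change of 0.13. Over all genes tested these shares were 14.1% and 10.8%. The 2 collagen lists hold 11 and 15 of the 51. In the list of collagen modification and folding, 11 of 14 tested genes passed as higher (78.57%), with a median of 0.63. Plod2, a lysyl hydroxylase, stood at 224 and 190 CPM with C/EBPβ, against 105 and 102 CPM with empty vector (1.005, adjusted p = 2.58e-04). P3h3, of the prolyl 3-hydroxylase family, stood at 46.1 and 35.1 CPM, against 15.8 and 12.1 CPM with empty vector (1.54, adjusted p = 3.84e-04). Of 17 tested collagen chains, the cargo of these enzymes, 15 passed as higher (88.24%, against 14.1% of all genes tested), with a median of 1.32. They include Col6a2 (3.40) and Col6a1 (2.97), and Col18a1 passed as lower (-1.21). Summed over the 18 collagen genes listed, the level was 19503 and 15534 CPM with C/EBPβ, against 5654 and 6219 CPM with empty vector.

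Retrieval and exit genes moved in part. In the COPI and p24 list, 7 of 18 tested genes passed as higher (median 0.26), against 14.1% of all genes tested. The smallest adjusted p were those of Kdelr3, a receptor that returns KDEL proteins to the ER (0.63, adjusted p = 0.00112), and Tmed3 (0.83, adjusted p = 0.00123). The count was 3 without C/EBPβ replicate 1. In the list of other COPII and exit genes, 6 of 18 passed as higher (median 0.13), against the same 14.1%. The smallest adjusted p were those of Sec16b, a scaffold of ER exit sites (1.07, adjusted p = 4.40e-04), and Lman1, a lectin cargo receptor (0.44, adjusted p = 0.00465). The count was 3 without C/EBPβ replicate 1. Of the 11 members and listed genes that hold TGACGTGG, 6 passed as higher, namely Sec23a, Sec24d, Txndc5, Sec16b, Kdelr3 and Copb2. Txndc11 (0.23), Copb1 (0.20), Ube2j1 (0.01), Vcp (-0.11) and Arf1 (-0.16) did not pass. Among all tested genes that hold the sequence, these 11 included, 21% passed as higher, and among all genes tested 14.1%. A part of this sequence in the changes was not tested.

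In 3 lists the share that passed as higher lay near the 14.1% of all genes tested, and nothing about these lists is read from it. In the translocon and signal peptidase list, 2 of 20 passed as higher (10%, median 0.10). These were Ssr4 (0.42, adjusted p = 0.0119) and Srpr, the receptor of the signal recognition particle (0.31, adjusted p = 0.0235), and 4 passed without empty vector replicate 1. In the N-glycan list, 3 of 15 passed (20%, median 0.12; 1 without C/EBPβ replicate 2 or empty vector replicate 2), and 3 in DESeq2 and limma-voom. Among them were Prkcsh, a glucosidase II subunit (0.32, adjusted p = 0.0217), and Stt3a, an oligosaccharyl transferase (0.33, adjusted p = 0.0238). Without C/EBPβ replicate 1, 0 of the 15 passed in edgeR (2 at an unadjusted p under 0.05). Srpr, Prkcsh and Stt3a each lost their call without C/EBPβ replicate 1 (adjusted p = 0.228, 0.212 and 0.131) and without C/EBPβ replicate 2 (0.0646, 0.063 and 0.1).

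Of 12 other thiol oxidoreductases, 3 passed as higher and 1 as lower (median 0.11), against 14.1% and 10.8% of all genes tested. Qsox1, a secreted sulfhydryl oxidase, had 0.73 (adjusted p = 0.00138) and Txndc5 0.41 (adjusted p = 0.0145; 0.103 without C/EBPβ replicate 1). Ero1lb, an ER oxidase, had -0.50 (adjusted p = 0.0239), and did not pass with any 1 library left out (0.0592 to 0.106). The third such list holds genes of ER-associated degradation outside the members, and 3 of 17 tested passed as higher (17.65%, median 0.11; 1 without C/EBPβ replicate 2). Without C/EBPβ replicate 1, 0 passed in edgeR (2 at an unadjusted p under 0.05), and with all libraries DESeq2 and limma-voom each called 4. Syvn1, the Hrd1 ligase, had 0.42 (adjusted p = 0.00728; 0.0737 without C/EBPβ replicate 1). Selenos, a partner of the p97 ATPase, had 0.35 (adjusted p = 0.0172; 0.126 without C/EBPβ replicate 1).

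The PERK branch and the integrated stress response answer ER stress and amino acid shortage. Of 20 genes tested, 8 passed as lower, against 10.8% of all genes tested, 1 as higher and 11 did not pass, with a median log2 fold change of -0.15. Without C/EBPβ replicate 1, 5 passed as lower. Atf3, a stress-induced transcription factor, stood at 5.09 and 6.06 CPM with C/EBPβ, against 16.5 and 16.7 CPM with empty vector (-1.56, adjusted p = 1.25e-04). Phgdh, which opens serine synthesis, stood at 93.3 and 114 CPM, against 184 and 187 CPM with empty vector (-0.84, adjusted p = 8.02e-04). Ddit4, a stress-induced inhibitor of mTORC1, was higher (0.79, adjusted p = 3.40e-04). Named after their values were seen, Atf4 (0.03), Ddit3 (0.01) and Eif2ak3, which encodes PERK (0.11), did not pass. The last list holds other sensors, their proteases and further genes such as Wfs1, Eif2a and Traf2. Of its 8 tested genes, 0 passed as higher and 1 as lower (12.5%), near the 10.8% of all genes tested, and nothing about the list is read from it. That gene was Wfs1 (-0.91, adjusted p = 3.07e-04).

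**Figure D3:**
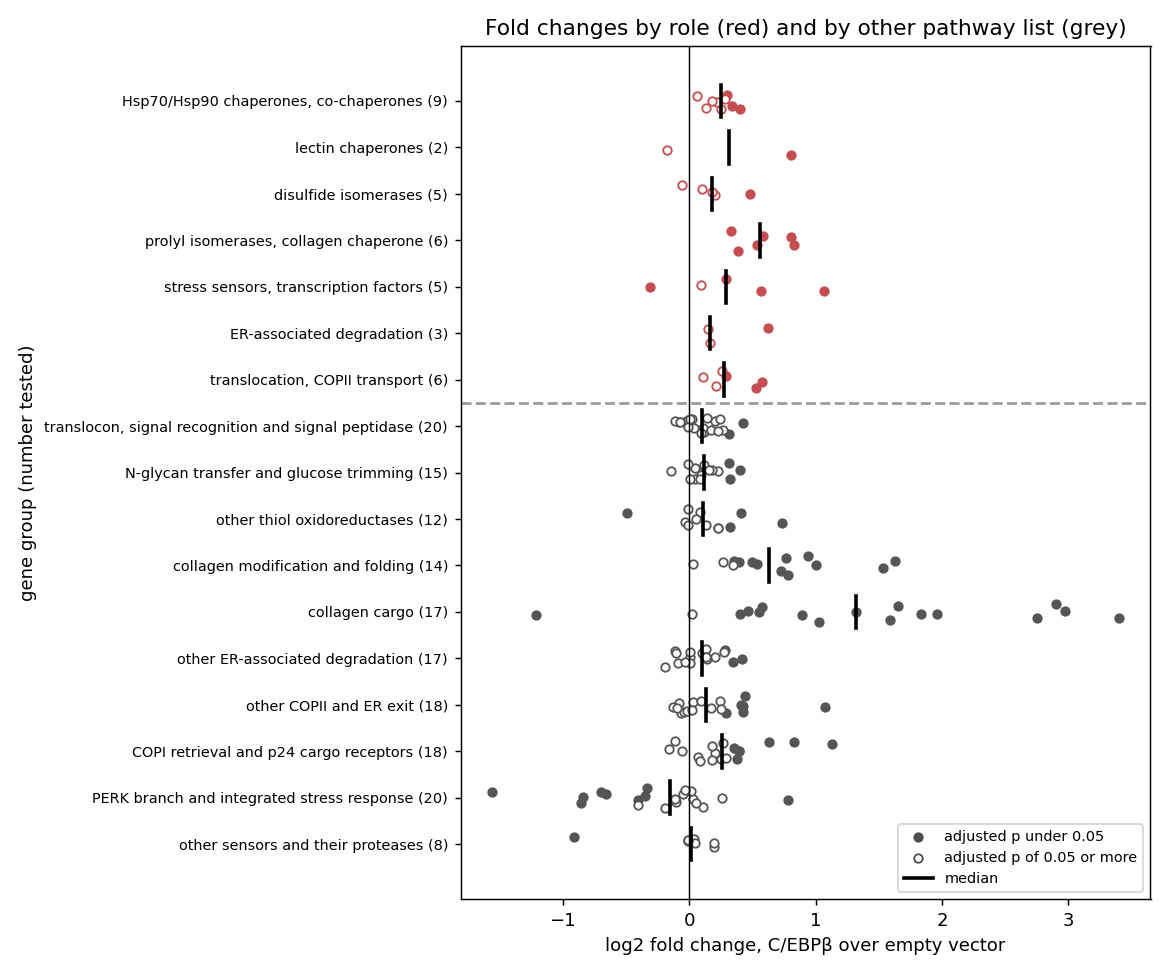
Log2 fold changes, C/EBPβ over empty vector, of the 36 genes by role (red, above the dashed line) and of 10 other pathway lists (grey). Filled points passed an adjusted p of 0.05 and black bars are medians. The collagen lists lie farthest right (medians 1.32 and 0.63) and the PERK list left of 0 (median -0.15).

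With each library left out in turn, 10 members kept their call in every fit run, namely Creb3l1, Fkbp14, Calr, Fkbp7, Herpud1, Serpinh1, Sec23a, Creb3l2, Fkbp9 and Sec24d. These are 12 fits, the one reported and 11 alternatives, among them a test against a change of 1.2-fold, which called the same 10 members. Leaving out C/EBPβ replicate 1, C/EBPβ replicate 2 or empty vector replicate 2 gave 12 members called as higher each time, and leaving out empty vector replicate 1 gave 17. Among the 10, Serpinh1 came nearest to the threshold, with an adjusted p of 0.048 in its least favourable fit.

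**Figure D4:**
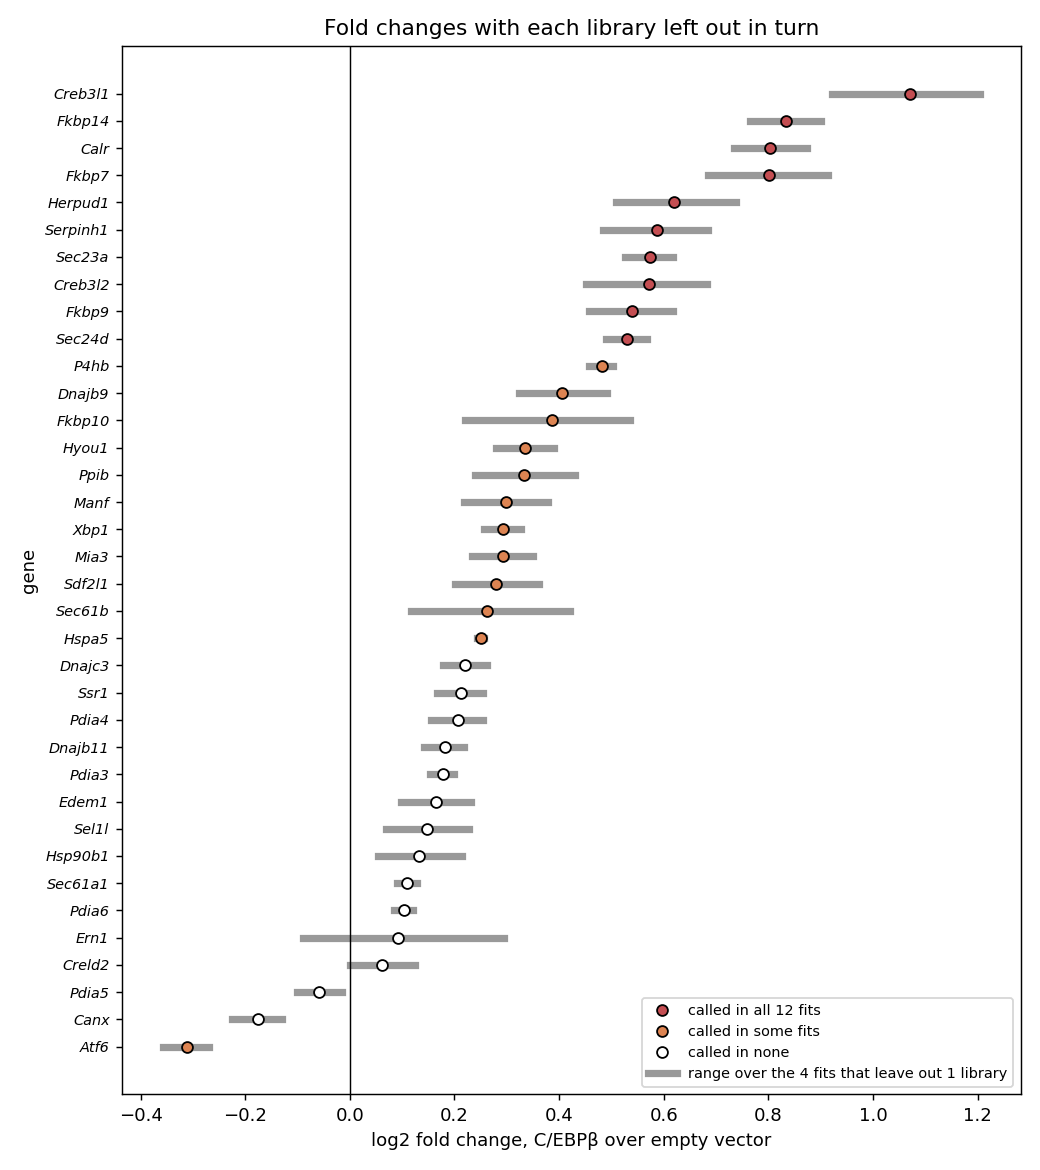
Log2 fold change of each gene, C/EBPβ over empty vector, in the fit of all libraries (points) and its range over the 4 fits that leave out 1 library (grey bars). Red points passed in all 12 fits, orange in some and white in none. The 10 red points lie between 0.53 (Sec24d) and 1.07 (Creb3l1).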

How the data were processed

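The authors' deposited counts are whole-number fragment counts per gene. Per the file headers they were made with featureCounts 1.5.1, paired and reverse stranded, on GENCODE M12, and per the submitters' processing notes with HISAT2 2.0.4, featureCounts 1.4.6 and GRCm38; which featureCounts version is right was not settled. Multi-mapping reads were not counted, so genes with close copies can be under-counted. In the authors' deposited table each gene has a base mean (signal), log2 fold change and SE (log2), a statistic (score) and p-values; which libraries went into it is not stated, and some of its base means, such as that of Lum, cannot come from these 4 libraries alone. Gene length is the summed exon length in the count files.

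Of 49585 genes, 15078 passed filterByExpr of edgeR 4.0.16 in R 4.3.3 (minimum count 10, minimum total 15). Groups came from sample titles. The main test was edgeR's quasi-likelihood test with TMM factors and no covariate, with Benjamini-Hochberg adjustment and a threshold of 0.05; the SE is the absolute log2 fold change divided by the root of the F statistic. TPM were computed here from counts and length. DESeq2 1.42.0, limma-voom 3.58.1, 2 other filters, library totals, a replicate block, a 1.2-fold test and leaving out each library were alternatives. The scripts were tested on simulated data. Members, lists and rules were chosen with earlier results of these data known. Named pathway genes are up to 2 called genes per list and direction with the smallest adjusted p.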

Additional observations from a re-analysis of the deposited data

How the results depend on the processing

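All 36 members kept their direction under the 11 alternatives, except Ern1, whose log2 fold change was -0.089 without empty vector replicate 1 and 0.295 without empty vector replicate 2. Without 1 library, 12 to 17 members passed as higher and 0 to 1 as lower, 2519 to 3366 genes passed in all, 1539 to 2023 as higher and 980 to 1343 as lower. Of the pathway genes, 34 to 52 then passed as higher and 7 to 10 as lower. Where no member passed as lower in edgeR, the count at an unadjusted p under 0.05 was 0 without C/EBPβ replicate 1 and 1 without C/EBPβ replicate 2 or empty vector replicate 2, and DESeq2 and limma-voom called 1 in the full set. Against a 1.2-fold change (glmTreat of edgeR), 10 members passed as higher and 0 as lower (also 0 at an unadjusted p under 0.05), 2216 genes passed, 1369 higher and 847 lower, and 28 pathway genes passed as higher and 7 as lower. This test asks for a larger change. With the replicate number as a block, 20 members passed as higher and 1 as lower. The deviations of same-numbered libraries from their group means were only weakly correlated across genes (correlation 0.147). With 2 pairs and no label that ties them the numbers were not taken as pairs. Of 638 single-gene values under alternatives, 572 kept direction and side of the threshold. The library totals limit none of the member values to few counts, and the spread is estimated from 2 libraries per group.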

Other observations

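The authors' deposited table lists all 36 members with the same sign as the counts fitted here. At its adjusted p under 0.05, 17 members are higher and 1 is lower in the authors' deposited table, and all 18 passed in the same direction in the counts. The member that differs is Manf, with a log2 fold change of 0.25 and an adjusted p of 0.0966 in the authors' deposited table. Which libraries went into that table is not stated. Its base mean for Lum is 65.89 in the authors' deposited table, while the libraries used here hold 1 and 0 counts of Lum with C/EBPβ and 1 and 0 counts with empty vector, so that base mean is not a mean over these 4 libraries alone. Whether the table shares libraries with the counts used here was not settled, and it is not taken as separate evidence.

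The abundance order of the members changed little between groups when set per length. Calr, Serpinh1, P4hb, Hsp90b1, Pdia3, Hspa5 and Canx took ranks 1 to 7 in both groups. Creb3l1 ranked 10 with C/EBPβ and 15 with empty vector. Serpinh1 was 2.33 and 2.01 times as abundant as Hspa5 in C/EBPβ replicates 1 and 2, against 1.77 and 1.66 times in empty vector replicates 1 and 2.

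The C/EBPβ libraries differed from each other in cargo level. For 15 of 18 collagen genes replicate 1 was the higher of the 2 C/EBPβ libraries, and for 7 of 18 replicate 1 was the higher of the 2 empty vector libraries. Of the 36 members, 21 stood higher in replicate 1 within each group.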
